A study of Mus musculus with 4 samples.

Results

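The kallikrein-related peptidases of epithelium are 9 genes of the mouse Klk cluster on chromosome 7 (Klk5, Klk6, Klk7, Klk8, Klk9, Klk10, Klk11, Klk13 and Klk14), and they were read by symbol from a table of 34721 entries, in which every member had an entry. They were chosen with their levels in these cells known, in particular the difference between the AOC3 and AOC11 lines, so that difference is given as a description. The study established 4 oral squamous carcinoma cell lines from C57BL/6 mice whose buccal mucosa had been painted with the carcinogen 7,12-dimethylbenzanthracene (DMBA). AOC3 and AOC11 were derived from oral tumors of different mice, and each has a counterpart (AOC3-LN, AOC11-LN) grown from a metastatic lymph node of its own mouse. All 4 lines had been passed once through the flank of a C57BL/6 mouse and depleted of fibroblasts with a magnetic bead kit before they were cultured without further treatment. RNA from each line was sequenced as 1 library, so each line is 1 sample, each pair of lines is 1 mouse, and no difference below has a replicate check or a p-value.

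Kallikrein-related peptidases are secreted serine proteases that are made as inactive precursors and activate each other in cascades. In stratified epithelium some of them cut the proteins that hold the outer cells together, and the inhibitor encoded by Spink5 restrains some members but not all. Family members also cut protease-activated receptors, of which F2rl1 encodes the one best known as their target in keratinocytes. Several members are known for altered expression in squamous carcinomas.

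The members lie on the plus strand between positions 43690418 and 43851181 of chromosome 7 in mm10, a span of 161 kb. Klk9 ends 819 bases before Klk8 starts, and the other gaps between neighbouring members range from 1771 bases (Klk11 to Klk10) to 47069 bases (Klk13 to Klk11). The following runs are the 100 bases before the annotated start of the 4 members that reached 1 FPKM in any line, and of Klk7, which lies between Klk8 and Klk6 and did not. They are RefSeq sequence of GRCm38.p6 (mm10), plus strand, cut so that no base falls inside the GENCODE gene model. Capitals mark the GC box letters GGGCGG on either strand, and the letters TTAAAA, which were picked after these sequences had been read.
Klk10 (chr7:43780935-43781034): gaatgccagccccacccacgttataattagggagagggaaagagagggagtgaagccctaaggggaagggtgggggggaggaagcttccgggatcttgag
Klk9 (chr7:43791791-43791890): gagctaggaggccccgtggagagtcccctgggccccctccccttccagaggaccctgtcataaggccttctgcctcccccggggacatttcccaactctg
Klk8 (chr7:43797477-43797576): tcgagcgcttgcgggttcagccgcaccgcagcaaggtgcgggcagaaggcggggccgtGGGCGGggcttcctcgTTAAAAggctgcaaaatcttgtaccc
Klk7 (chr7:43811194-43811293): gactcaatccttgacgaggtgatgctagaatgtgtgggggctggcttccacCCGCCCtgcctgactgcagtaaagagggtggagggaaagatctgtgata
Klk6 (chr7:43824399-43824498): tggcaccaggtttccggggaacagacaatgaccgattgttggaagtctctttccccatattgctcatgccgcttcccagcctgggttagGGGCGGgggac

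RefSeq lists 11 promoters for the 9 members, and motifs were searched on both strands of the 250 bases before each RefSeq start. GGGCGG was found in 4 of the 11 (Klk8, Klk7 and both starts of Klk6), against 32.7% of all 32851 promoters in the same table. TTAAAA was found in 4 of the 11, against 17.7% of all promoters. It lies 26 to 21 bases before the start of Klk8, and 17 to 12 bases before the RefSeq start of Klk10, which is inside the GENCODE gene model of Klk10 and is therefore not printed. The other TTAAAA matches were 68 to 63 bases before the second start of Klk6 and 233 to 228 bases before the first start of Klk11. Neither the TATA box letters TATAAA (12.4% of all promoters) nor the AP-1 letters TGANTCA (6.75%) were found in a member's window. These matches describe the letters in the window only.

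The cells carried epithelial transcripts at high levels. All 7 epithelial markers on the list passed the filter, and their summed level was 2736 to 3494 FPKM (fragments per kilobase of transcript, scaled to the mapped fragments of the library). Single markers differed more than the sum. Krt5 was at 499 FPKM in AOC3 and 275 in AOC3-LN, against 4.99 in AOC11 and 17.0 in AOC11-LN. Krt14 went the other way, at 166 and 150 FPKM in AOC3 and AOC3-LN, against 257 and 259 in AOC11 and AOC11-LN. Trp63 reached 1 FPKM in the AOC3 lines only, at 1.69 in AOC3 and 2.10 in AOC3-LN. It was at 0.0848 FPKM in AOC11 and 0.841 in AOC11-LN. None of the 6 fibroblast, 5 T cell or 4 endothelial markers reached 1 FPKM in any line, with sums of at most 1.01 FPKM in each of these lists. The macrophage list held 1 gene above 1 FPKM out of 5, Csf1r, at 0.995 FPKM in AOC3 and 0.435 in AOC3-LN, against 20.8 in AOC11 and 6.01 in AOC11-LN, while Adgre1 was listed at 0 in every line. The summed macrophage list ran from 0.4995 to 1.01 FPKM in the AOC3 lines and from 6.09 to 20.8 in the AOC11 lines. In the AOC11 lines nearly all of this was Csf1r, while Ptprc, Itgam and Lyz2 stayed at or below 0.0640 FPKM in every line. The part of these cells in the differences below was not tested. The steps between low values put the number of fragments between 28310000 and 33870000 per library. At that depth, 3 fragments on a transcript of 1400 bases correspond to 0.0721 to 0.0852 FPKM.

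Klk8 was the highest member in 3 of the 4 lines. Summed over the 9 genes, the level was 193.5 FPKM in AOC3 and 459.6 in AOC3-LN, against 5.77 in AOC11 and 5.05 in AOC11-LN, and Klk8 made up 93.2%, 89.5%, 42.7% and 69.99% of these sums. Without Klk8 the sums were 13.1, 48.3, 3.31 and 1.51 FPKM in the same order. AOC3-LN held the highest sum with and without Klk8, and both AOC3 lines stood above both AOC11 lines either way. In bulk RNA, fewer cells that express a gene and less of its RNA per cell cannot be told apart. In AOC11 Klk10 was the highest member, at 126% of the Klk8 level, whereas in the other lines it was at 4.78% (AOC3), 6.70% (AOC3-LN) and 25.9% (AOC11-LN) of it.

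**Figure D1:**
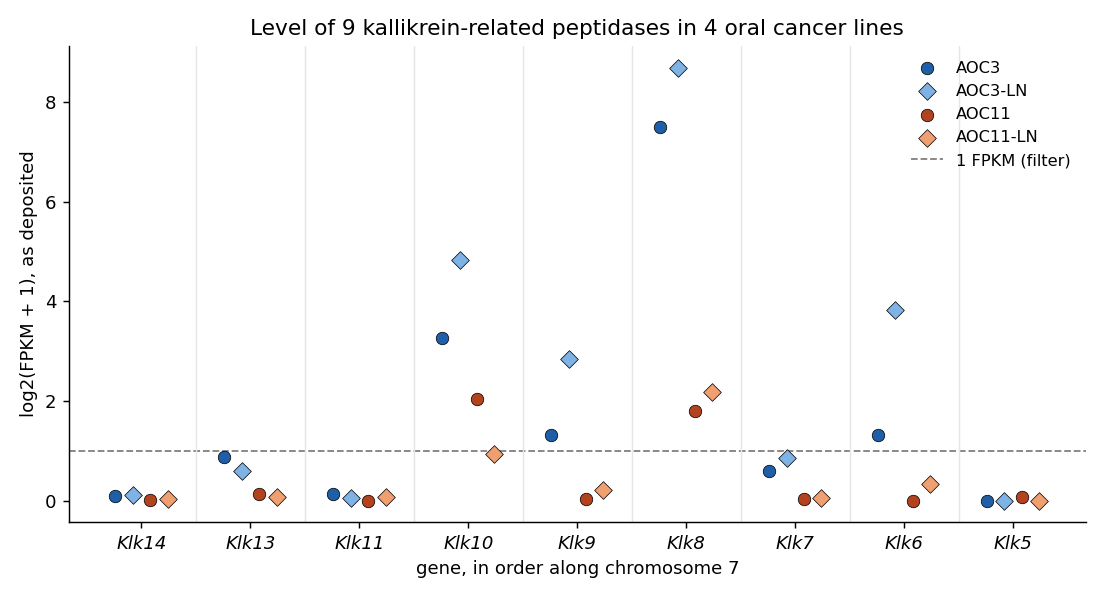
Level of the 9 genes in each of the 4 lines as log2(FPKM + 1) of the deposited values (vertical axis), ordered along the chromosome, with 1 point per library and a dashed line at 1 FPKM. Klk8 reached 411 FPKM in AOC3-LN, and Klk6, Klk8, Klk9 and Klk10 were higher in both AOC3 lines than in both AOC11 lines, while Klk5, Klk11 and Klk14 stayed near 0.

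Klk8 (ENSMUSG00000064023.4, chr7:43797577-43803826) encodes neuropsin, a trypsin-like protease of keratinocytes and neurons. Its level was 180.4 FPKM in AOC3 and 411 in AOC3-LN, against 2.46 in AOC11 and 3.53 in AOC11-LN, from about 7032, 13575, 95 and 133 fragments. It ranked 549th and 228th of all entries in AOC3 and AOC3-LN, and 10870th and 10488th in AOC11 and AOC11-LN. The FPKM ratio of AOC3 to AOC11 was 73.3, with a counting interval of 59.7 to 90.4, and that of AOC3-LN to AOC11-LN was 116 (98.2 to 139). These intervals are exact 95% binomial intervals on the estimated fragments and cover counting error only. An antisense noncoding gene, 2310002F09Rik, shares 382 of the 1540 exonic bases of Klk8. Its own level was 5.75 FPKM in AOC3 and 6.74 in AOC3-LN, against 1.94 in AOC11 and 1.88 in AOC11-LN. The library kit keeps strand, but abundance was estimated with default parameters, and the default library type of TopHat2 and Cufflinks is unstranded, so reads from these shared bases cannot be told apart. As listed, the antisense level was far below that of Klk8 in the AOC3 lines and of a similar size in the AOC11 lines. This leaves the AOC11 values of Klk8 uncertain. The antisense values are uncertain in all 4 lines, since they may hold Klk8 reads, and they do not measure the share of reads in question.

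Klk10 (ENSMUSG00000030693.10, chr7:43781035-43785410) and Klk9 (ENSMUSG00000047884.6, chr7:43791891-43796757) are the nearest members upstream of Klk8. Klk10 was at 8.63 FPKM in AOC3 and 27.6 in AOC3-LN, against 3.11 in AOC11 and 0.913 in AOC11-LN, from about 351, 950, 125 and 36 fragments. Its AOC3 to AOC11 ratio was 2.78 (2.26 to 3.43), below that of Klk8, so AOC3 and AOC11 lay closer together for Klk10. Between the lymph node lines the ratio was 30.2 (21.6 to 43.3). Klk9 was at 1.49 FPKM in AOC3 and 6.15 in AOC3-LN, against 0.0246 in AOC11 and 0.164 in AOC11-LN. The AOC11 value of Klk9 corresponds to about 1 fragment and the AOC11-LN value to about 7, so both AOC11 lines were near the limit of detection. The ratio of AOC3-LN to AOC11-LN was 37.6 (17.9 to 94.4).

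Klk6 (ENSMUSG00000050063.18, chr7:43824499-43832030) encodes neurosin, a trypsin-like protease that is also abundant in the central nervous system. It was at 1.49 FPKM in AOC3 and 13.2 in AOC3-LN, was listed at 0 in AOC11 and had 0.263 FPKM in AOC11-LN. With AOC11 set at 3 fragments, the limit that a count of 0 allows in that library, AOC3 was at least 20.4-fold higher by its measured value. The lower end of the counting interval, which also covers the error of the AOC3 fragments, was 16.1-fold. AOC3-LN stood 49.97-fold above AOC11-LN (26.5 to 96.5). AOC3 and AOC3-LN themselves were far apart, with about 62 and 461 fragments.

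Klk7 and Klk13 were detected at under 1 FPKM in every line. Klk7, the chymotrypsin-like enzyme of the stratum corneum, was at 0.514 FPKM in AOC3 and 0.812 in AOC3-LN, against 0.0173 in AOC11 and 0.0355 in AOC11-LN, the last values being worth about 1 and 2 fragments. Klk13, a trypsin-like member, was at 0.829 FPKM in AOC3 and 0.512 in AOC3-LN, against 0.0909 in AOC11 and 0.0560 in AOC11-LN. These Klk13 values rested on about 46, 24, 5 and 3 fragments in the same order, so both AOC11 lines were near the limit of detection. Klk7 and Klk13 were above the AOC11 lines in both AOC3 lines, and the AOC3 to AOC11 ratio of Klk13 was 9.12 (3.64 to 29.5).

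Klk5, Klk11 and Klk14 were at or near 0. Klk5 and Klk14 encode trypsin-like proteases of the epidermal cascade. Klk5 was listed at 0 in 3 lines and had 0.0560 FPKM, about 2 fragments, in AOC11. Klk11 was at 0.0986 FPKM in AOC3 and 0.0319 in AOC3-LN, was listed at 0 in AOC11 and had 0.0534 FPKM in AOC11-LN. Klk14 had 0.0589, 0.0775, 0.0109 and 0.0291 FPKM in AOC3, AOC3-LN, AOC11 and AOC11-LN. No value of these 3 genes rested on more than 4 fragments, and the antisense gene 2310002F09Rik shares 287 of the 1271 exonic bases of Klk14. No order of the lines can be read for them at this depth.

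For the comparison of the mice, the deposited FPKM values plus 1 were log2-transformed and quantile-normalized, and the mean of AOC11 and AOC11-LN was subtracted from the mean of AOC3 and AOC3-LN. Entries at 1 FPKM or more in at least 1 line numbered 14165, and 4 of the 9 members were among them. An entry counted as past the fold threshold when it was among these and its log2 difference exceeded 1 in size, so the other 5 members could not be counted. The log2 difference was 6.20 for Klk8, 2.63 for Klk10, 2.45 for Klk6 and 1.99 for Klk9, so 4 of the 9 members were past the threshold on the AOC3 side, where 5.10% of the entries that passed the filter were. No member was past it on the AOC11 side, where 6.0% of those entries were. The members were selected on this contrast, so nothing is read from these counts. Among members outside the filter, the differences were 0.72 for Klk7, 0.64 for Klk13, 0.08 for Klk14, 0.06 for Klk11 and -0.05 for Klk5. The median over all 9 was 0.72, beside 0.01 over the entries that passed the filter. Without AOC3-LN the difference was 1.14 for Klk6, 1.16 for Klk9, 1.82 for Klk10 and 5.59 for Klk8, and without AOC3 it was 3.77, 2.81, 3.44 and 6.80. The FPKM values of both AOC3 lines were above those of both AOC11 lines in 7 of the 9 members, as in 15.5% of all 34721 entries and 22.5% of those that passed the filter. The exceptions were Klk5 and Klk11, and the 7 include Klk14, for which no order can be read at its 0 to 2 fragments.

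**Figure D2:**
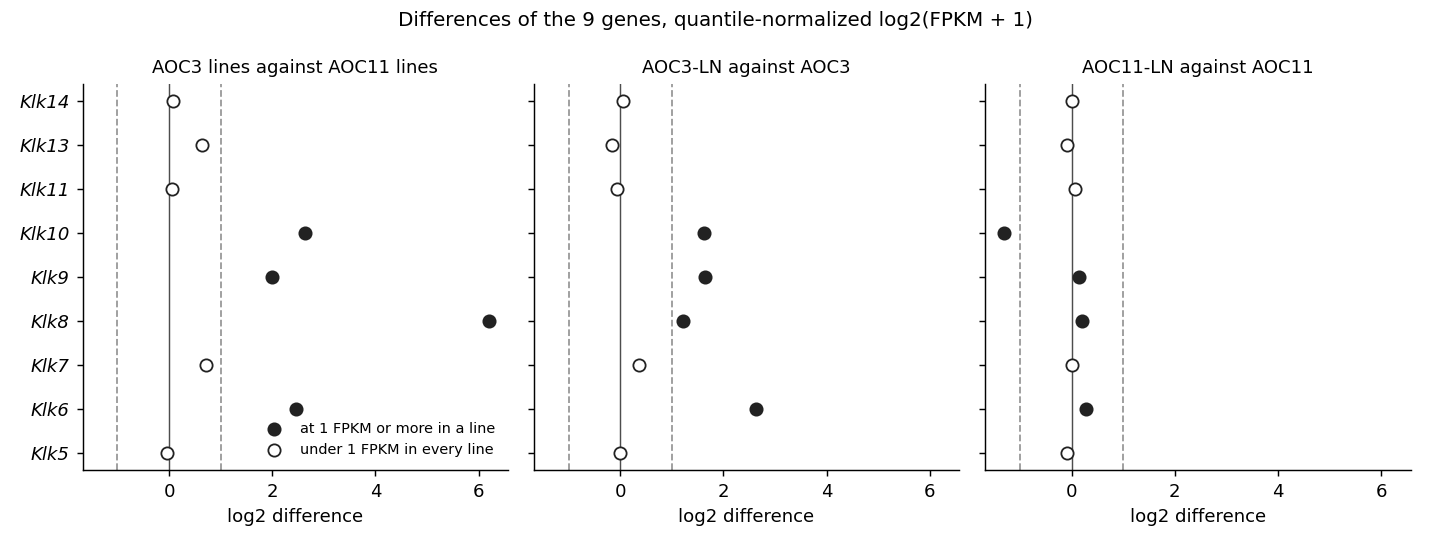
Log2 differences (horizontal axis, quantile-normalized log2(FPKM + 1)) of the 9 genes in the 3 comparisons, with dashed lines at the fold threshold of 1 and filled points for genes that reached 1 FPKM. Klk6, Klk8, Klk9 and Klk10 were past the threshold in the first and second panels, and only Klk10 in the third, in the opposite direction.

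Each lymph node line was set beside the primary line of its mouse. Each is 1 line and 1 library, so the site that the cells came from cannot be told apart from the line or the library. In the AOC3 mouse, 4 of the 9 members were higher in AOC3-LN past the fold threshold, against 2.11% of entries past the filter. None were lower, against 3.42% of those entries. Both lines are part of the contrast that selected the members, so nothing is read from these counts or from the medians below. The log2 difference was 2.63 for Klk6, 1.65 for Klk9, 1.62 for Klk10 and 1.21 for Klk8. On the FPKM scale AOC3-LN held 8.82 times the AOC3 level of Klk6 (counting interval 6.73 to 11.6). The same ratio was 4.12 for Klk9 (3.12 to 5.50), 3.19 for Klk10 (2.83 to 3.62) and 2.28 for Klk8 (2.21 to 2.35). Among these 4 the intervals of Klk6 and Klk8 lay apart from the others, whereas those of Klk9 and Klk10 overlapped. Klk7 had a ratio of 1.58 and Klk13 of 0.618, with intervals that included 1 (0.959 to 2.62 and 0.360 to 1.03). The median log2 difference over the 9 members was 0.37, and 0.02 over the entries that passed the filter.

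In the AOC11 mouse, Klk10 was lower in AOC11-LN past the fold threshold and the other 8 members were not past it. None of the 9 were higher past the threshold, where 4.97% of the entries that passed the filter were. Of the 9, 1 was lower, where 3.14% of those entries were. These lines are also part of the contrast that selected the members, so nothing is read from these counts or from the medians below. Klk10 had a log2 difference of -1.30, and its AOC11 level was 3.40 times the AOC11-LN level (2.33 to 5.07). Klk8 had 1.44 times its AOC11 level in AOC11-LN (1.09 to 1.88), on FPKM values that were not quantile-normalized. Its log2 difference was 0.20 with quantile normalization and 0.39 without it. The antisense overlap leaves the Klk8 values of both lines uncertain. Klk6 was listed at 0 in AOC11, and against 3 fragments there AOC11-LN was at least 3.75-fold higher by its value of about 11 fragments, with a lower end of the counting interval of 2.57-fold. For Klk9 the AOC11-LN to AOC11 ratio was 6.64, with an interval of 0.921 to 323 that included 1. The median over the 9 members was 0.01, beside -0.02 over the entries that passed the filter.

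**Figure D3:**
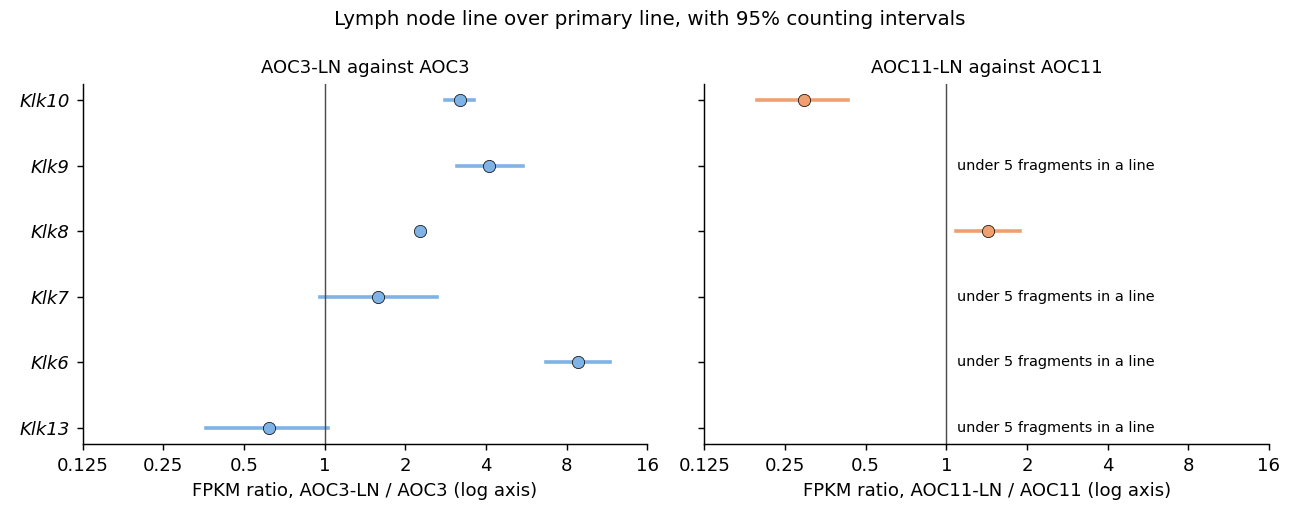
FPKM ratio of the lymph node line to the primary line (log axis) for 6 members, with 95% counting intervals as bars; where a line had under 5 fragments, words replace the point. The ratios of Klk6, Klk8, Klk9 and Klk10 lay above 1 in the AOC3 mouse, and that of Klk10 was 0.294 in the AOC11 mouse.

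The other Klk genes and the genes that flank the members were read from the same table. Of the 37 annotated Klk genes of chromosome 7, 23 had an entry, and the other 14 apart from the members never reached 1 FPKM. Of these 14, 11 were listed at 0 in all 4 lines, and the highest value was 0.488 FPKM, for the pseudogene Klk1b28-ps. Klk12, which lies between Klk13 and Klk11, was at 0.0623 FPKM in AOC3 and 0.239 in AOC11 and was listed at 0 in both lymph node lines. Within 500 kb on either side, 24 other protein-coding genes were annotated with an entry, and 7 of them passed the filter. Their differences between the AOC3 and AOC11 lines ran from -0.52 to 0.49, and none was past the fold threshold. The electron transfer gene Etfb, the highest of them, was at 58.4 FPKM in AOC3 and 49.6 in AOC3-LN, against 55.2 in AOC11 and 63.4 in AOC11-LN. In AOC11-LN against AOC11, Siglecg, which encodes a sialic acid-binding receptor, was past the threshold at -1.98, and the other 6 were not. The antisense gene 2310002F09Rik, which spans Klk14 to Klk8, had a log2 difference of 1.38 in favour of the AOC3 lines. Reads from the exonic bases that it shares with Klk8 cannot be told apart, so this difference cannot be separated from that of Klk8.

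**Figure D4:**
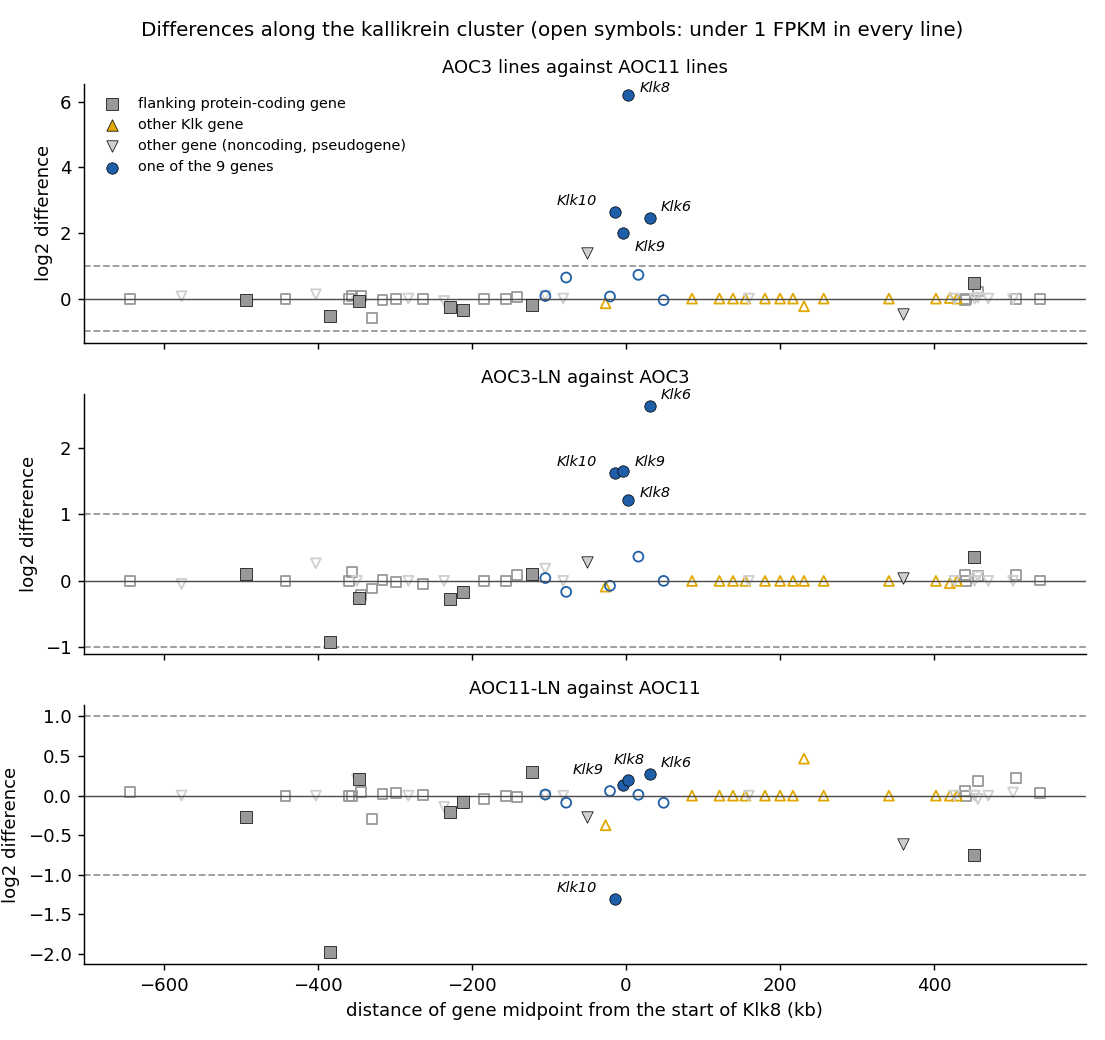
Log2 difference (vertical axis) against the distance of each gene's midpoint from the start of Klk8 in kb, for the 3 comparisons, with open symbols for genes under 1 FPKM in every line. The 4 filled circles above the fold threshold in the upper panel are Klk6, Klk8, Klk9 and Klk10, and no flanking protein-coding gene passed it there.

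Genes that act with the peptidases were counted by role. Of 7 inhibitors, 6 had an entry and none was past the fold threshold in any comparison. Spint1 and Spint2, Kunitz-type inhibitors of membrane serine proteases, passed the filter, with 24.7, 19.7, 33.8 and 41.5 FPKM for Spint1 in AOC3, AOC3-LN, AOC11 and AOC11-LN. Spink5 stayed at or below 0.0128 FPKM. Serpina5 was not analysed here. Of 6 activating and partner proteases, 4 passed the filter, and 1 was past the threshold between the AOC3 and AOC11 lines. This was Plat, the tissue plasminogen activator, with 11.4 FPKM in AOC3 and 9.36 in AOC3-LN, against 3.46 in AOC11 and 2.23 in AOC11-LN (log2 difference 1.68). Prss8, which encodes prostasin, was higher in AOC11-LN than in AOC11 by a log2 difference of 1.17, while Plau and the matriptase gene St14 were not past the threshold in any comparison.

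Of 9 substrates and receptors, 3 passed the filter. F2rl1, encoding the receptor PAR2, was at 49.0 FPKM in AOC3 and 52.0 in AOC3-LN, against 5.03 in AOC11 and 5.83 in AOC11-LN, which gave a log2 difference of 3.07. F2r, encoding PAR1, had 33.2, 29.2, 3.61 and 9.26 FPKM in these lines, and its log2 difference was 2.26. For both receptors the AOC3 lines lay above the AOC11 lines, and neither passed the threshold between AOC3-LN and AOC3. In AOC11-LN against AOC11, F2r was higher by a log2 difference of 1.08. Cdsn, encoding corneodesmosin, reached 1.18 FPKM in AOC3-LN, and the other 6 genes, among them the desmoglein genes Dsg1a, Dsg1b and Dsg1c, stayed under 0.1 FPKM.

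Of 10 nuclear receptors and transcription factors on the list, 7 passed the filter, and 3 were past the threshold between the AOC3 and AOC11 lines. Klf4, a factor of keratinocyte differentiation, was at 8.09 FPKM in AOC3 and 17.7 in AOC3-LN, against 5.17 in AOC11 and 5.39 in AOC11-LN, with log2 differences of 1.13 between the mice and 1.12 between AOC3-LN and AOC3. Trp63, the squamous lineage factor p63, had 1.69, 2.10, 0.0848 and 0.841 FPKM in these lines, and its log2 difference was 1.12. Vdr, the vitamin D receptor, was at 5.97 FPKM in AOC3 and 1.44 in AOC3-LN, against 7.75 in AOC11 and 9.12 in AOC11-LN. It had log2 differences of -1.12 between the mice and -1.39 between AOC3-LN and AOC3, and was lowest in AOC3-LN.

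The genes nearest to Klk8 in their pattern over the 4 lines were sought among 11376 protein-coding genes that passed the filter, by the distance between centred log2 profiles. Gm11032 and Gm17571 came first, at 1.52 and 1.64, but their transcripts of 102 and 90 bases make their FPKM values uncertain. They were followed by the keratin genes Krt6a (1.93) and Krt5 (2.04) and by Nup62cl (2.25). Krt6a was at 22.9 FPKM in AOC3 and 81.1 in AOC3-LN, against 1.16 in AOC11 and 1.40 in AOC11-LN. Like Klk8 it was highest in AOC3-LN, whereas Krt5 was highest in AOC3. The mean profile of the 4 members past the filter lay nearest to Nptx1 (0.41), Qrfp (0.49), Parvb (0.59), Klf2 (0.60) and Nup62cl (0.70). Among the members, Klk9 and Klk6 were nearest to each other at 0.84, and Klk8 was 3.73 to 4.22 from the other 3 members. Adding 1 FPKM before the log2 step shrinks the profile of a gene at low levels, so these distances also follow level. Between AOC3-LN and AOC11-LN, Klk9 had an FPKM ratio of 37.6 but a log2 difference of 2.74, and Klk8 had 116 and 6.70. The distances rest on 4 points each and are given as a description.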

How the data were processed

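RNA from the 4 AOC lines was sequenced with 1 library per line (TruSeq Stranded mRNA, paired-end reads). The authors deposited FPKM values, estimated with TopHat2 and Cufflinks on GENCODE M21 and mm10 with default parameters after trimming with Trim Galore. The table itself has had neither step of the log2 and quantile normalization named in the methods. Here the values were log2-transformed with a pseudocount of 1 FPKM, quantile-normalized over all 34721 entries and compared among 14165 entries at 1 FPKM or more in at least 1 line, with Python 3 scripts. Positions and symbols were taken from GENCODE M21. Among these entries, differences larger than 1 log2 unit in either direction were counted. No test was run, because each line is 1 library.

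The table gives no counts. Fragments per library were estimated from steps between low FPKM values, of which 71.4% to 75.1% fell within 0.1 of a whole multiple, against 20% by chance, so fragment numbers are approximate, most of all for genes with several transcripts. The members and lists were chosen with earlier results of these data known. All 9 members were named, the 3 genes of each list with the largest difference between the mice could be named, like genes were the 5 nearest, and other genes were named after their values were seen. Klk8 and Klk14 were the members that share any run of 50 bases with another gene's transcripts. Alternatives were a pseudocount of 0.1, no quantile normalization, scaling by the median, other filters, a fold threshold of 1.5-fold and leaving out each line.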

Additional observations from a re-analysis of the deposited data

Results flagged for a closer look

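Klk10 is the member whose lymph node line differed from the primary line past the fold threshold in both mice and in opposite directions. Its log2 difference was 1.62 in AOC3-LN against AOC3 and -1.30 in AOC11-LN against AOC11. The difference between the mice was not tested, since each line is 1 library. Of the entries that passed the filter, 43 (0.304%) were higher in AOC3-LN and lower in AOC11-LN past the threshold, and Klk10 was the only member among them.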

How the results depend on the processing

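Among members that passed the filter, the counts past the fold threshold were 4 between the AOC3 and AOC11 lines, 4 in AOC3-LN against AOC3 and 1 in AOC11-LN against AOC11. With a pseudocount of 0.1 FPKM the last count was 2, where Klk6 joined Klk10. Klk7 and Klk13, which are under 1 FPKM in every line and so outside the filter, then had differences of 2.66 and 2.16 between the mice and would be counted but for the filter. At a threshold of 1.5-fold the counts did not move, although Klk7 (0.72) and Klk13 (0.64) exceeded it outside the filter. With log2 values left as they were, with scaling by the median, with no filter and at a filter of 5 FPKM the counts did not move. Leaving out 1 line at a time, the count between the mice was 4 to 4, but Klk6 ranged from 1.14 without AOC3-LN to 3.77 without AOC3. In the same way Klk9 ranged from 1.16 to 2.81, Klk10 from 1.82 to 3.44 and Klk8 from 5.59 to 6.80. The sizes of these differences therefore depended on a single library. Of 198 values for single members under an alternative, counted with the filter, 197 kept their side of the threshold and none reversed a difference past it. Members under 1 FPKM in every line could not be counted as crossing the threshold while the filter held, so the 197 includes values that were fixed in advance. In AOC11-LN against AOC11, 61.3% of the entries past the threshold were higher in AOC11-LN, 71.2% without quantile normalization and 72.0% after scaling by the median, and Klk10 had a log2 difference of -1.08 after that scaling. No fit blocked by mouse was run, and each difference between a lymph node line and its primary line is within 1 mouse. The depth limits Klk5, Klk11 and Klk14, which rest on at most 4 fragments.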
